A study of Mus musculus with 4 samples.

Results

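Genes of cell adhesion, the extracellular matrix and its proteases were examined in 46C mESCs after knockdown of *Rhox6*, a reproductive homeobox gene on the X chromosome. They were picked from the deposited table by the start of the gene name (cadherins, protocadherins, claudins, junctional adhesion molecules, integrins, collagens, laminins, fibrillins, glypicans, leucine-rich repeat genes, ICAM, ADAM, ADAMTS and MMP proteases, TIMP and serpin inhibitors and related families). The name pattern matched 44 genes, of which *Cdh2*, *Cldn7* and *Thbs1* were left out, and the other 41 of the 920 listed genes form the set described here. The name decides membership, so the set also holds *Lrrc8b*, an anion channel subunit, and *Lrrc27* and *Lrrc70*, for which no adhesion role is stated here.

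The 46C line is a mouse embryonic stem cell line that carries a green fluorescent protein reporter at *Sox1*. Both groups were infected with lentivirus, one carrying a *scramble* control hairpin and the other a hairpin against *Rhox6*, and all cells were kept in serum-containing medium for 24 h before total RNA was taken. There were 2 libraries per group, and no source states that they came from separate cultures, so the spread between them may be technical. A hairpin lowers a transcript without removing it. The authors' mean of the knockdown libraries is headed Rh6_Sh1, but no sample label states which of the study's hairpins each library carried, so this is not settled. *Rhox6* is not among the listed genes, so the labels could not be checked with the targeted gene.

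Cells in a sheet hold each other through tight junctions, built from claudins and junctional adhesion molecules, and through cadherins and protocadherins, which bind like molecules on neighbouring cells. They hold the surrounding matrix through integrins and proteoglycans such as glypicans, and that matrix is a mesh of collagens, laminins and fibrillins. Secreted and membrane-bound metalloproteases cut matrix and cell-surface proteins, and TIMP and serpin proteins inhibit proteases. Mouse ESCs grow as compact colonies with epithelial contacts and change their adhesion genes as they differentiate.

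The values are expression levels with 2 decimals in a unit that the authors did not name, which could be TPM or FPKM, and nothing gives the depth of each library. All 920 listed genes carry the authors' mark of a significant difference between these same libraries, so every listed gene had to differ and the p-values below describe listed genes and are not independent evidence. A difference is that of log2(level + 1), *Rhox6* shRNA minus *scramble*, which understates the change of genes with low levels, and "rose" or "fell" means an adjusted p under 0.05 in limma (Benjamini-Hochberg, taken over all 920 genes). With 2 libraries against 2, no exact permutation test can give a two-sided p below 0.333. In bulk RNA, fewer cells of a type and less RNA per cell cannot be told apart.

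Of the 41 genes, 28 rose and 12 fell in *Rhox6* shRNA cells, and *Lrrc27* did not pass the test. That is 68.3% higher, where 53.7% of all listed genes were higher, and 29.3% lower, where 42.9% of all listed genes were lower. The libraries of the groups did not overlap for the 28 higher genes (54.1% of all listed genes were separated in this direction) nor for the 12 lower genes (44.2% of all listed genes). The higher genes were *Jam2*, *Cdh17*, all 12 protocadherins, *Lrrn2*, *Flrt2*, *Lrrc70*, *Itga9*, both glypicans, both fibrillins, *Adam1a*, *Adamts8*, *Adamts9* and the 3 protease inhibitors. The lower genes were the 3 claudins, *Icam5*, *Lrrc8b*, *Itga2b*, both collagen VI genes, *Lamb3*, *Mmp9*, *Mmp28* and *Adam19*. Among the higher genes, 9 are neighbours in the γ-protocadherin array and share exons, and outside the array 19 of 32 genes rose.

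Steps of log2 1 or more were reached by 6 higher genes (*Jam2*, *Pcdh9*, *Lrrn2*, *Itga9*, *Gpc4* and *Adamts9*), where 30.8% of all listed genes did so, and by 3 lower genes (*Col6a6*, *Mmp9* and *Adam19*), where 17.1% did so. Without *Rhox6* shRNA library 1, 5 genes were lower by this much (19.0% of all listed genes). These counts depend on the pseudocount, and at 0.1 in place of 1 they were 28 higher (51.4% of all listed genes) and 8 lower (37.0% of all listed genes). The median difference of the set was 0.59, beside 0.56 for all listed genes, and 0.45 for the 32 genes outside the γ-protocadherin array. Among the genes that rose, the median difference was 0.79 and the median ratio of mean levels 2.94, and among all listed genes that rose these were 1.05 and 2.91. Among those that fell, the median difference was -0.89 and the median ratio 0.437, beside -0.93 and 0.380 for all listed genes that fell. Both group means were below 1 for 9 of the 41 (22%), beside 10.2% of all listed genes, and the median *scramble* mean was 0.795, beside 2.38 for all listed genes.

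**Figure D1:**
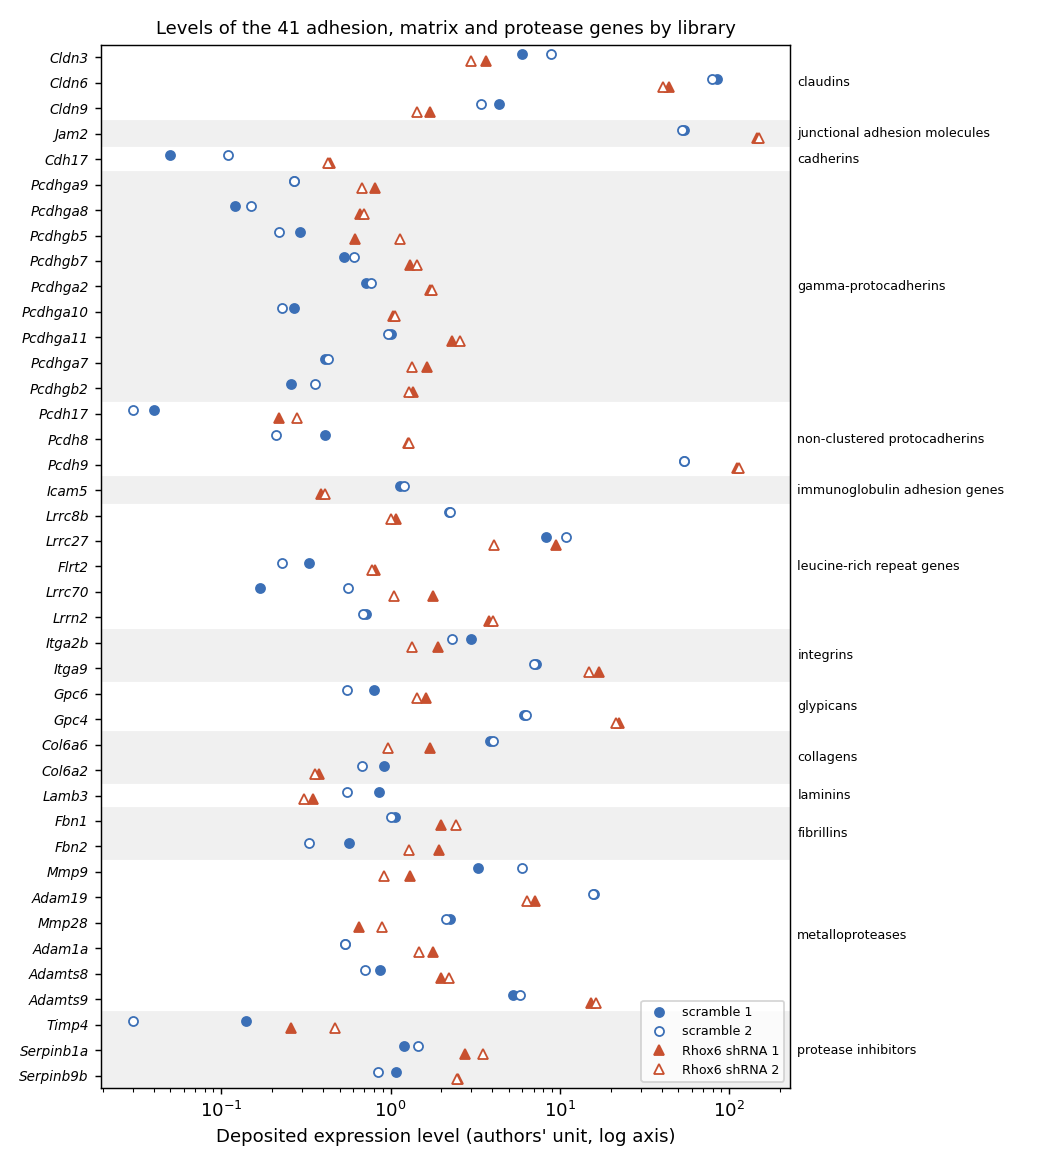
Deposited level (log axis, the authors' unit) of each of the 41 genes in the 2 *scramble* libraries (blue circles) and the 2 *Rhox6* shRNA libraries (red triangles), grouped by family. Blue and red symbols are apart in every gene except *Lrrc27*, and the libraries of a group lie close together in most genes.

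**Figure D2:**
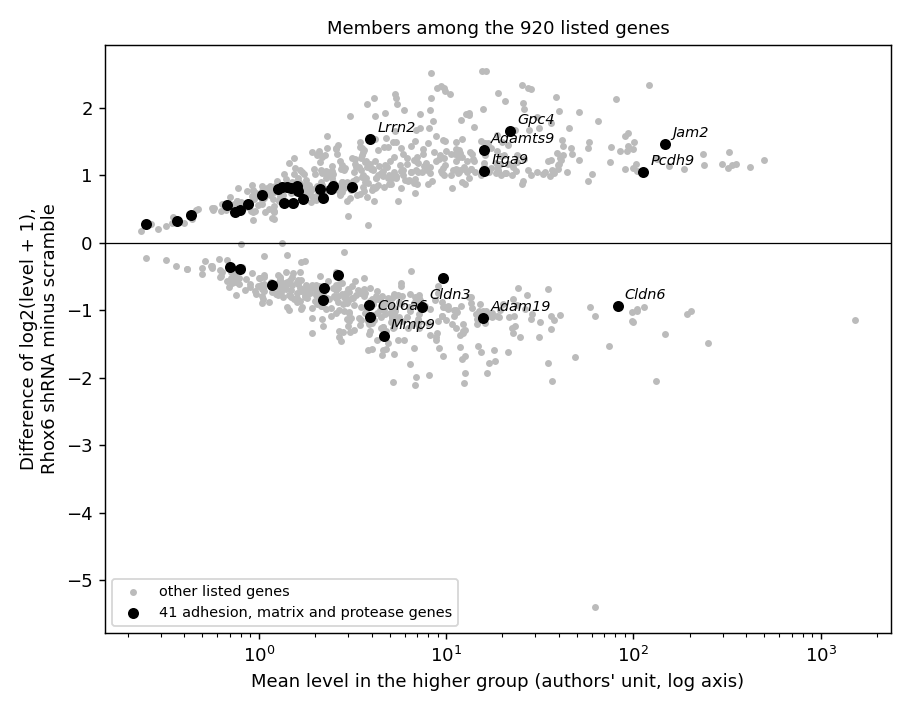
Difference of log2(level + 1) against the mean level of the higher group (log axis, the authors' unit) for all 920 listed genes (grey), with the 41 genes in black. The black points lie within the 2 arms of listed genes, and 1 listed gene outside the set sits far below the others.

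The sums of the listed genes' levels ranged from 9586 to 11973 over the 4 libraries. After scaling of the 4 libraries to equal sums, the median difference of all listed genes moved from 0.56 to 0.45. The set held 28 higher and 12 lower genes as before, where 486 and 407 of all 920 listed genes were. By log2 1 or more, 4 were higher (15.9% of all listed genes) and 7 lower (27.6%). The sums hold only genes with the authors' mark of a difference, so equal sums need not mean equal depth. Markers of other cell types moved between the groups too, on lists chosen with earlier results of these data known. Of all listed genes, 53.7% rose and 42.9% fell. Of 10 neural progenitor markers 7 were listed (*Sox1*, *Sox3*, *Pax6*, *Meis1*, *Meis2*, *Cdh2* and *Ncam1*) and all rose (summed level 6.90 to 7.70 in *scramble* and 24.5 to 25.8 in *Rhox6* shRNA libraries). *Cdh2* and *Ncam1* are adhesion genes themselves, and without them the sums were 2.93 to 3.44 and 12.1 to 12.9. Of 14 primitive and parietal endoderm markers 3 were listed (*Gata6*, *Dab2* and *Cubn*) and all fell (27.9 to 29.6 and 6.64 to 7.21). Of 10 pluripotency markers 3 were listed (*Klf4*, *Nanog* and *Tbx3*) and rose (171.2 to 175.4 and 450.9 to 462.5). *Nanog* alone had means of 126.1 and 322.9 within these sums. In the paper's qRT-PCR, most candidates were as the authors expected. *Nanog* and the neural marker *Meis1* were among the exceptions, and *Klf4*, *Tbx3* and *Pax6* were not. In knockdown cells cultured without leukemia inhibitory factor, the paper's qRT-PCR found higher *Nanog*. Of 9 trophoblast markers *Krt18* (mean 15.71 in *scramble* and 6.75 in *Rhox6* shRNA libraries) and *Krt19* (14.81 and 4.495) fell. *Gata3* rose from a mean of 0.01 to 0.775, so the sums (29.8 to 31.3 and 10.9 to 13.2) were nearly all keratin. Of 12 fibroblast markers *Twist1* alone was listed and rose (0.97 to 1.09 and 3.06 to 3.37). The levels of the other markers on these lists are not known here, and the part that such cells had in the results was not tested.

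The claudins of the set, strand-forming proteins of tight junctions, all fell (the listed claudin *Cldn7* was left out of the set). Their differences of log2(level + 1) were similar, but the ratios of means ran from 0.403 (*Cldn9*) to 0.518 (*Cldn6*). *Cldn6* (ENSMUSG00000023906), a claudin of early embryonic epithelia, had levels of 84.92 and 79.69 in *scramble* and 44.32 and 40.89 in *Rhox6* shRNA libraries. Both knockdown libraries were below both controls, and the fall in the mean from 82.3 ± 3.70 to 42.6 ± 2.43 (SD, n = 2 libraries each) was far larger than the spread within a group. The difference was -0.93 (SE 0.074, limma adjusted p = 0.000426). *Cldn3* (ENSMUSG00000070473) had levels of 6.0 and 8.86 in *scramble* and 3.67 and 2.98 in *Rhox6* shRNA libraries. Again the groups did not overlap, although the *scramble* libraries were further apart, and the difference was -0.95 (SE 0.20, adjusted p = 0.00688 in limma). *Cldn9* (ENSMUSG00000066720) fell from 3.88 ± 0.665 to 1.57 ± 0.191, a difference of -0.92 (adjusted p = 0.00312 in limma). *Cldn6* and *Cldn9* lie side by side on chromosome 17 (GRCm38, chr17:23679249-23682446 on the + strand and chr17:23682584-23684026 on the - strand), with 137 bases between their facing 3′ ends, and no 50-base word of one transcript occurs in another gene.

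Genes of the same junction that the name pattern does not catch also fell. *Cgn*, the junctional plaque protein cingulin, had levels of 23.65 and 23.07 in *scramble* and 9.16 and 9.64 in *Rhox6* shRNA libraries, a difference of -1.23 (adjusted p = 0.000292 in limma). *Tjp3*, the scaffold ZO-3, went from 11.3 and 11.2 to 4.75 and 3.51, and *Marveld3*, a membrane protein of tight junctions, from 3.33 and 2.60 to 0.84 and 0.77. Their differences were -1.27 and -1.13, and in none of these genes did the groups overlap. The primitive endoderm markers fell in the same libraries, as given above, and their part in the fall of the junction genes was not tested.

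Promoter sequences are shown for *Cldn3* and *Cldn6*, which both fell, and for a protease that fell (*Adam19*) and a protease that rose (*Adamts9*), in all cases upstream of the annotated start and outside the gene. They are RefSeq windows of build GRCm38.p6, read 5′ to 3′ on the gene's strand, and capitals mark an E-box (CAGGTG or CACCTG), a GC box (GGGCGG or CCGCCC) or a homeodomain core (TAATTA, searched because *Rhox6* encodes a homeodomain protein). *Cldn3* is shown from chr5:134985964-134986213 (+), *Cldn6* from chr17:23679115-23679248 (+, the first 134 of its 250 bases, since the rest lies in the annotated gene), *Adam19* from chr11:46055734-46055983 (+) and *Adamts9* from chr6:92943535-92943784 (-).
Cldn3: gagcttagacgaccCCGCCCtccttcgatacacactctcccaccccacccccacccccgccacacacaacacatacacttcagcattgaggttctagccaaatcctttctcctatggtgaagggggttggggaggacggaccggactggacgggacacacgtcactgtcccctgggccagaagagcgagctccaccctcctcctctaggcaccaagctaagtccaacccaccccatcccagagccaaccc
Cldn6: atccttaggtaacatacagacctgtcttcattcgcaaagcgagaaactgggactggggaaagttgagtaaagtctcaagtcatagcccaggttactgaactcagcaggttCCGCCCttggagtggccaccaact
Adam19: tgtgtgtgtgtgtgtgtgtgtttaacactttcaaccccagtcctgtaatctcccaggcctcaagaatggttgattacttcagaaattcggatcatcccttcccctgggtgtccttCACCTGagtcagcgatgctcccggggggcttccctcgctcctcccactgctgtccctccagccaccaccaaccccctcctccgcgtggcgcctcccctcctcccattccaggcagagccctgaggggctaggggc
Adamts9: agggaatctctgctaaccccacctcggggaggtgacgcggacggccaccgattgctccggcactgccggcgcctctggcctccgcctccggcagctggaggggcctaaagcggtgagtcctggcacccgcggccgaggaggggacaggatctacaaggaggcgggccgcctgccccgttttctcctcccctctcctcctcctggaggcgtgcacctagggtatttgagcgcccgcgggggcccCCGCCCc
The stretches of *Cldn3*, *Cldn6* and *Adamts9* hold 1 GC box each, and that of *Adam19* holds 1 E-box. GC content was 60.8% in *Cldn3*, 49.3% in *Cldn6*, 60.0% in *Adam19* and 71.2% in *Adamts9*, beside a median of 52.4% for the 250 bases before all RefSeq starts. Over 24 genes of the set with a window that was searched, an E-box was found in 1 of 13 higher and 3 of 10 lower genes (19.4% of all genes with a window), a GC box in 4 of 13 and 7 of 10 (35.4% of all genes), and the homeodomain core in 0 of 13 and 0 of 10 (5.70% of all genes). For *Cldn6* the whole 250 bases were counted, and its E-box lies in the part that is not shown. These are matches of letters and say nothing on whether a factor binds there.

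*Jam2* moved the opposite way to the claudins. It encodes JAM-B, an immunoglobulin-fold protein at cell contacts, and its gene (ENSMUSG00000053062) lies at chr16:84774123-84825928 (+). Its levels were 53.90 and 52.39 in *scramble* and 145.82 and 150.23 in *Rhox6* shRNA libraries. The 2 knockdown libraries were nearly alike and far above both controls, with a ratio of means of 2.79 and a difference of 1.46 (SE 0.055, limma adjusted p = 0.000148). *Cdh17*, the liver-intestine cadherin, was the sole classical or other cadherin in the set and rose at a very low level, from 0.080 ± 0.042 to 0.435 ± 0.0071 (difference 0.41, adjusted p = 0.00379 in limma).

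Every listed protocadherin rose. *Pcdh9* (ENSMUSG00000055421), a protocadherin of the developing nervous system, had levels of 54.09 and 54.34 in *scramble* and 110.70 and 114.50 in *Rhox6* shRNA libraries. The controls were almost identical and both knockdown libraries were about 2.08 times higher, a difference of 1.04 (SE 0.056, limma adjusted p = 0.000198). *Pcdh8*, known from the paraxial mesoderm and the nervous system, rose from 0.31 ± 0.141 to 1.27 ± 0.014, a ratio of 4.10 and a difference of 0.80. *Pcdh17*, another neural protocadherin, rose from 0.035 ± 0.0071 to 0.25 ± 0.042, a ratio of 7.14 that could lie between 6.13 and 8.50 from the rounding of the levels alone. The neural progenitor markers rose in the same libraries, as given above, and their part in the rise of the protocadherins was not tested.

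The γ-protocadherins are made from an array of variable first exons, each of which is joined to the same constant exons, and in neurons the different proteins give cells an identity for recognition of their own branches. The array spans 180081 bases of chromosome 18 (GRCm38, chr18:37661793-37841873, + strand) and holds 21 annotated coding genes, of which 9 were listed: *Pcdhga2*, *Pcdhga7*, *Pcdhga8*, *Pcdhga9*, *Pcdhga10*, *Pcdhga11*, *Pcdhgb2*, *Pcdhgb5* and *Pcdhgb7*. That is 6 of 12 genes of the a subfamily, 3 of 6 of the b subfamily and 0 of 3 of the c subfamily. All 9 rose, from *scramble* means between 0.135 and 0.985 to *Rhox6* shRNA means between 0.68 and 2.44. Ratios of means ran from 2.32 to 5.04 with a median of 3.43, and differences from 0.46 (*Pcdhga9*) to 0.83 (*Pcdhgb2*) with limma adjusted p from 0.00124 to 0.0152.

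*Pcdhga11* stood at 1.01 and 0.96 in *scramble* and at 2.30 and 2.57 in *Rhox6* shRNA libraries, and *Pcdhga8* at 0.12 and 0.15 and at 0.66 and 0.70. In both genes the knockdown libraries were close to each other and clear of the controls. Annotated transcripts of the other strand cover 29.0% of the exonic bases of *Pcdhga11* and 8.8% of those of *Pcdhga8*. Over the 9 listed genes this share ran from 0.0% (*Pcdhga2* among others) to 55.2% (*Pcdhga10*), and whether the counting used strand is not given. *Pcdhgb5* was less even, with 0.29 and 0.22 in *scramble* and 0.62 and 1.13 in *Rhox6* shRNA libraries. Its difference was 0.57, but it no longer passed without *scramble* library 1 (adjusted p = 0.0807) or *scramble* library 2 (adjusted p = 0.108), and fell to 0.37 without *Rhox6* shRNA library 2 (adjusted p = 0.0295, all in limma). The 9 genes are not independent measurements: 2116 exonic bases are common to them, 35.5% to 52.1% of the 50-base words of a listed gene occur in another gene, and reads from the constant exons cannot be assigned to 1 of them. Counted as 1 locus, a choice made after seeing the data, the set had 20 higher and 12 lower entries and a median difference of 0.49.

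**Figure D3:**
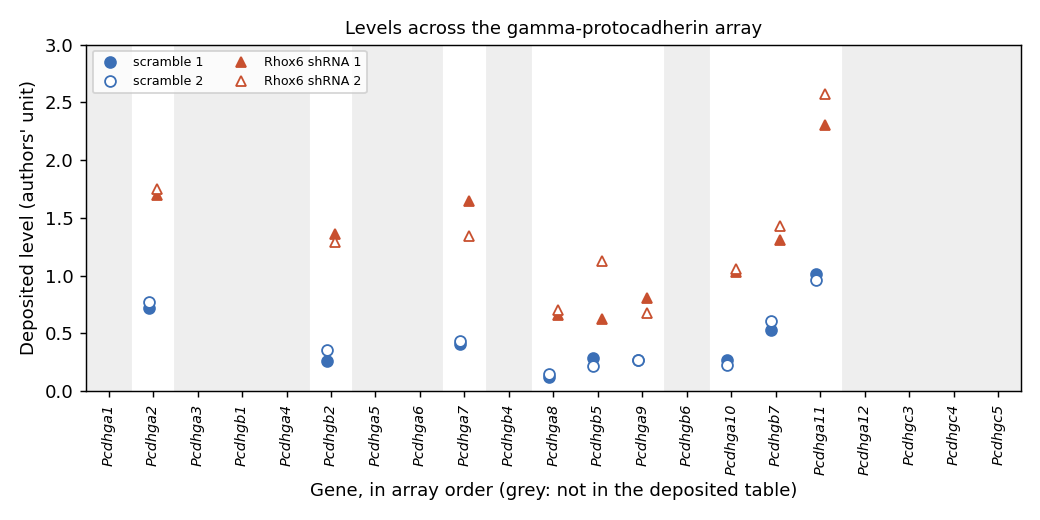
Deposited level (linear axis, the authors' unit) of the γ-protocadherin genes in their order along the array, with *scramble* libraries as blue circles and *Rhox6* shRNA libraries as red triangles; grey bands are annotated genes that were not in the deposited table. In all 9 listed genes, which are spread over the a and b genes, both triangles lie above both circles.

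Among other contact proteins, *Icam5*, the neuronal immunoglobulin-type adhesion molecule telencephalin, fell from 1.17 ± 0.042 to 0.40 ± 0.014 (difference -0.63, limma adjusted p = 0.00218). Annotated transcripts of the other strand cover 30.8% of its exonic bases, and whether the counting used strand is not given in the sources used here. *Lrrn2* (ENSMUSG00000026443), a neuronal leucine-rich repeat membrane protein at chr1:132880273-132940005 (+), had levels of 0.72 and 0.69 in *scramble* and 3.84 and 4.03 in *Rhox6* shRNA libraries. The libraries of each group were close together, and the ratio of means was 5.58 with a difference of 1.53 (SE 0.12, limma adjusted p = 0.000427). *Flrt2*, a guidance ligand and adhesion protein, rose from 0.28 ± 0.071 to 0.795 ± 0.021 (difference 0.49, adjusted p = 0.00429 in limma).

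The genes that the leucine-rich repeat names bring in behaved differently from one another. *Lrrc70* had levels of 0.17 and 0.56 in *scramble* and 1.78 and 1.05 in *Rhox6* shRNA libraries, without overlap but with wide spread in both groups. Its difference of 0.82 (limma adjusted p = 0.0135) did not pass without *scramble* library 1 (0.61, adjusted p = 0.101) or *Rhox6* shRNA library 1 (0.60, adjusted p = 0.0593). *Lrrc8b*, a subunit of the volume-regulated anion channel, fell from 2.23 ± 0.014 to 1.04 ± 0.042 (difference -0.66, adjusted p = 0.00366 in limma). *Lrrc27* had levels of 8.31 and 10.94 in *scramble* and 9.47 and 4.10 in *Rhox6* shRNA libraries. Knockdown library 1 lay between the controls and library 2 below both, so the groups overlapped, and the difference of -0.53 (SE 0.36, adjusted p = 0.204 in limma) was not larger than the spread between libraries. Without *Rhox6* shRNA library 1 it was -1.05 (adjusted p = 0.0139) and without library 2 it was -0.01 (adjusted p = 0.963), so a single library sets its value.

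The integrins, the receptors through which cells grip the matrix, were split. *Itga9* (ENSMUSG00000039115) encodes the α9 subunit, which binds tenascin-C and osteopontin among other ligands, and lies at chr9:118606690-118901003 (+). Its levels were 7.27 and 7.05 in *scramble* and 17.01 and 14.96 in *Rhox6* shRNA libraries. Both knockdown libraries were above both controls by more than the distance between them, at a ratio of means of 2.23 and a difference of 1.06 (SE 0.105, limma adjusted p = 0.000733). *Itga2b*, the subunit of the platelet fibrinogen receptor, fell from 2.65 ± 0.488 to 1.63 ± 0.410, and its difference of -0.47 passed narrowly (adjusted p = 0.0475 in limma). In limma it did not pass with a pseudocount of 0.1 (-0.68, adjusted p = 0.0514), nor without *scramble* library 1 (-0.34, adjusted p = 0.213), *scramble* library 2 (-0.61, adjusted p = 0.0697) or *Rhox6* shRNA library 2 (-0.31, adjusted p = 0.212).

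Glypicans, heparan sulfate proteoglycans tethered to the membrane by a lipid anchor, bind growth factors and shape their gradients. *Gpc4* (ENSMUSG00000031119, chrX:52053021-52165252, -) is the one gene of the set on the X chromosome. Its levels were 6.16 and 6.34 in *scramble* and 22.25 and 21.50 in *Rhox6* shRNA libraries. The libraries within each group differed little, and the ratio of means was 3.50 with a difference of 1.66 (SE 0.089, limma adjusted p = 0.000198). *Gpc6* rose from 0.675 ± 0.177 to 1.53 ± 0.134 (difference 0.60, adjusted p = 0.00741 in limma).

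The structural matrix genes split by class, with the collagen VI and laminin genes lower and the fibrillins higher. Collagen VI forms beaded filaments next to cells, and *Col6a6* (ENSMUSG00000043719, chr9:105687809-105828160 on the - strand) encodes one of its chains. Its levels were 3.86 and 4.02 in *scramble* and 1.72 and 0.96 in *Rhox6* shRNA libraries. The knockdown libraries were below both controls and less alike than these, with a ratio of means of 0.340 and a difference of -1.10 (SE 0.19, limma adjusted p = 0.00351). Of its 50-base words, 3.50% occur in another gene, nearly all in *Col6a5*. *Col6a2*, another chain, fell from 0.795 ± 0.163 to 0.370 ± 0.014 (difference -0.39, adjusted p = 0.0152), and did not pass without *Rhox6* shRNA library 1 (adjusted p = 0.0576) or 2 (adjusted p = 0.0667, all in limma).

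*Lamb3*, the β3 chain of an epithelial basement membrane laminin, fell from 0.705 ± 0.219 to 0.330 ± 0.028. Its difference was -0.35 (adjusted p = 0.0321), and it did not pass without *scramble* library 1 (-0.22, adjusted p = 0.0826), *Rhox6* shRNA library 1 (adjusted p = 0.0906) or *Rhox6* shRNA library 2 (adjusted p = 0.119, all in limma). Fibrillins build the microfibrils that carry elastic fibres and store growth factors of the TGF-β family. *Fbn1* rose from 1.03 ± 0.042 to 2.21 ± 0.311 (difference 0.66, limma adjusted p = 0.00567), with 20.1% of its exonic bases covered by a gene of the other strand. *Fbn2* rose from 0.450 ± 0.170 to 1.61 ± 0.460 (difference 0.84, adjusted p = 0.00579), and did not pass without *scramble* library 2 (0.72, adjusted p = 0.0548, all in limma).

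The metalloproteases fell into 2 directions, with both matrix metalloproteases and *Adam19* lower and *Adam1a*, *Adamts8* and *Adamts9* higher. *Mmp9* (ENSMUSG00000017737, chr2:164940780-164955850, +) is gelatinase B, which cuts denatured collagen and basement membrane collagen. Its levels were 3.30 and 5.97 in *scramble* and 1.30 and 0.92 in *Rhox6* shRNA libraries. The controls were far apart, but both lay above both knockdown libraries, and the mean was 4.18-fold lower after knockdown with a difference of -1.38 (SE 0.26, limma adjusted p = 0.00472). *Mmp28*, the secreted protease epilysin, fell from 2.19 ± 0.099 to 0.770 ± 0.170 (difference -0.85, adjusted p = 0.00233 in limma).

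*Adam19* (ENSMUSG00000011256, chr11:46055992-46147343, +) is a membrane protease that can shed neuregulin. It stood at 16.00 and 15.62 in *scramble* and at 7.11 and 6.40 in *Rhox6* shRNA libraries. The groups were well separated, with a ratio of means of 0.427 and a difference of -1.12 (SE 0.099, limma adjusted p = 0.000556). *Adamts9* (ENSMUSG00000030022, chr6:92772699-92943492, -) is a secreted protease that cleaves large matrix proteoglycans such as versican. It stood at 5.26 and 5.81 in *scramble* and at 15.35 and 16.44 in *Rhox6* shRNA libraries. Here the knockdown libraries were above both controls, at a ratio of 2.87 and a difference of 1.37 (SE 0.10, limma adjusted p = 0.000382), and transcripts of the other strand cover 12% of its exonic bases. *Adamts8* rose from 0.790 ± 0.113 to 2.11 ± 0.156 (difference 0.80, adjusted p = 0.00246 in limma). *Adam1a*, known from the testis and sperm, rose from 0.540 ± 0.000 to 1.63 ± 0.219 (difference 0.77, adjusted p = 0.00231 in limma), but 77.8% of its 50-base words occur in another gene, so reads from those stretches cannot be assigned to it alone.

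All 3 protease inhibitors in the set rose. *Serpinb1a*, an inhibitor of neutrophil proteases, rose from 1.33 ± 0.177 to 3.14 ± 0.552 (difference 0.83, limma adjusted p = 0.00446), with 2.80% of its words shared with other genes of its family. *Serpinb9b*, of the family of granzyme inhibitors, rose from 0.955 ± 0.163 to 2.49 ± 0.021 (difference 0.84, adjusted p = 0.00236 in limma). *Timp4*, an inhibitor of matrix metalloproteases, had levels of 0.14 and 0.03 in *scramble* and 0.26 and 0.47 in *Rhox6* shRNA libraries. Its groups did not overlap, but in limma the difference of 0.33 (adjusted p = 0.030) did not pass without the variance trend (0.33, adjusted p = 0.0542) or without *scramble* library 1 (0.40, adjusted p = 0.066), *scramble* library 2 (0.26, adjusted p = 0.164) or *Rhox6* shRNA library 2 (0.22, adjusted p = 0.102).

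**Figure D4:**
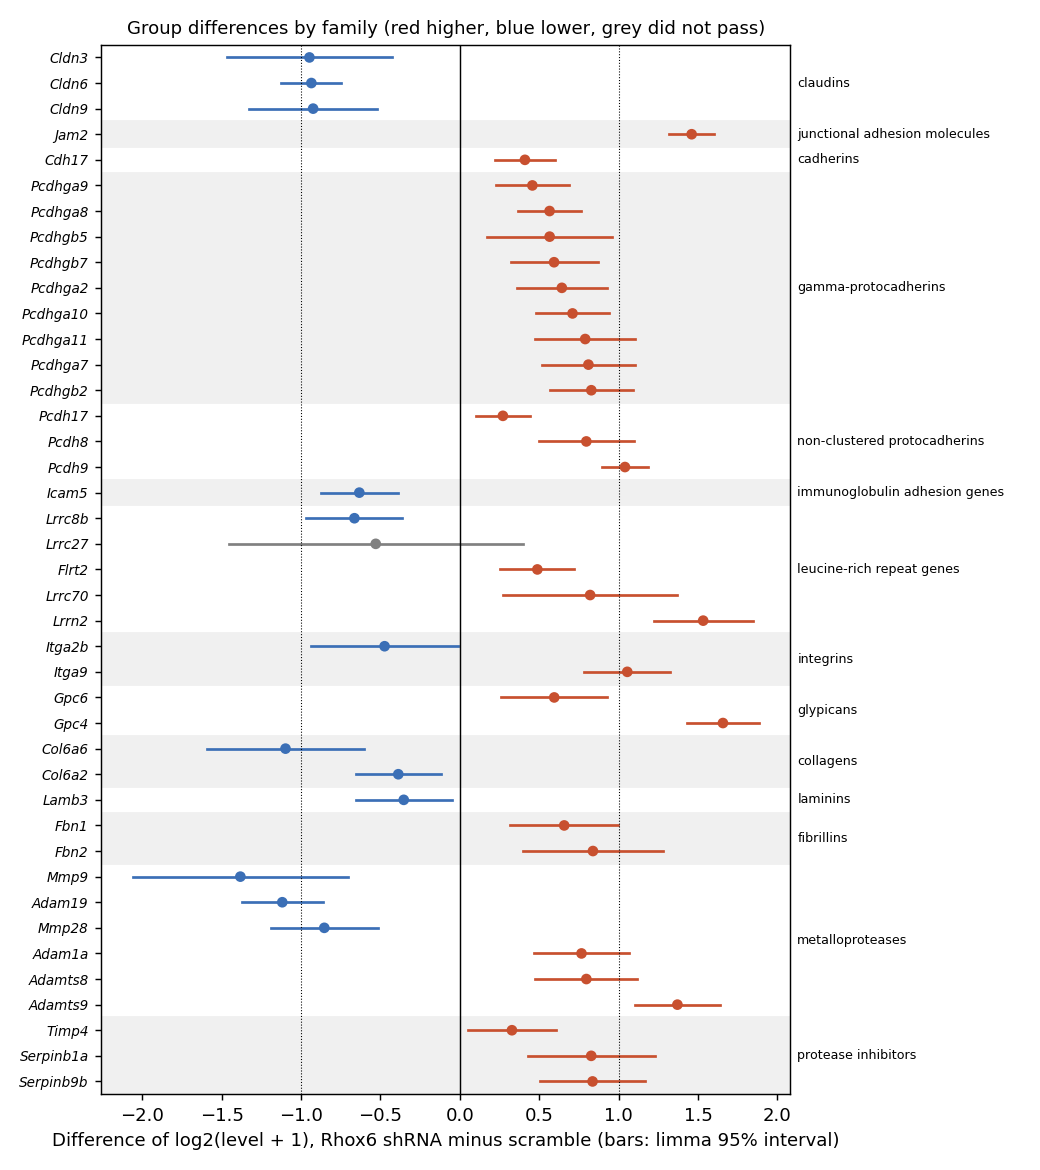
Difference of log2(level + 1), *Rhox6* shRNA minus *scramble*, for each of the 41 genes by family, with its limma 95% interval; dotted lines mark log2 1 in each direction. Claudins, collagens and the laminin lie left of 0 and protocadherins, glypicans, fibrillins and inhibitors right of it, the metalloproteases and integrins lie on both sides, and the interval of *Lrrc27* crosses 0.

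Of 88 other adhesion and matrix genes that the name pattern does not catch, 14 were listed, 8 higher and 6 lower, where 53.7% and 42.9% of all listed genes were. The summed level of the 14 was 235.4 to 241.0 in *scramble* and 444.6 to 450.3 in *Rhox6* shRNA libraries, of which *Spp1* makes most: without it the sums were 79.2 to 84.5 and 90.2 to 98.7. Besides the 3 junction genes above, *Cadm4* (-1.09), *Eln* (-0.96) and *Matn2* (-0.75) fell, the last 2 of which encode elastin and a matrix adaptor. *Tgfbi* (1.54), *Ncam1* (1.35), *Htra1* (1.28), *Vcan* (1.17), *Spp1* (1.17), *Nrcam* (1.05), *Tll1* (0.69) and *Ddr2* (0.48) rose. *Vcan* encodes versican and had levels of 9.49 and 6.71 in *scramble* and 17.54 and 21.08 in *Rhox6* shRNA libraries. *Spp1* encodes osteopontin, and *Htra1* and *Tll1* are proteases.

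The share of a family that was listed varied. *Cdh2*, *Cldn7* and *Thbs1*, which were listed but left out of the set, are not counted here. Of 517 annotated coding genes in these families, 41 were listed, among them 9 of 21 γ-protocadherins, 1 of 2 junctional adhesion molecules, 3 of 34 claudins, 2 of 31 integrins, 2 of 45 collagens, 1 of 11 laminins, 6 of 80 metalloproteases and 3 of 65 protease inhibitors. None of 63 genes for other protocadherins, desmosomal proteins and connexins was listed. The levels of genes that were not listed are not known here, so the directions given for a family hold for its genes in the set alone.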

How the data were processed

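RNA-seq libraries of 46C mESCs (2 *scramble* and 2 *Rhox6* shRNA) were grouped by their labels. The deposited table holds, for 920 genes and 4 libraries, a normalized signal in a unit that the authors did not name. Per the submitters' notes, Bowtie 0.12.2 was among the tools and mm9 the build, and no source used here gives a counter or an annotation. The table also holds the authors' mean per group, fold change, its log2 value, p-value and adjusted p-value, and none of these comparisons were used. Depth is unknown, so no counting interval could be given.

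From the levels, log2(level + 1) was fitted in limma (version 3.58.1, R 4.3.3) with a variance trend, and p-values of all 920 genes were adjusted by the Benjamini-Hochberg method. Members and lists were chosen with earlier results of these data known. Every member is named, and levels in every library are given for members with a mean of 5 or more in either group, a difference of log2 1 or more, overlapping groups or no pass. Some further members have them too, chosen after their values were seen. Gene places came from GENCODE M21 (GRCm38) by gene ID, with 919 listed genes and 40 members matched (*Lrrc70* was not), and no coordinates were converted. Shared 50-base words were counted between its transcripts. Promoters came from RefSeq (250 bases before each start, GRCm38.p6; printed stretches leave out bases inside the annotated gene), and 24 members outside chromosome 18 had a window. Alternatives were a pseudocount of 0.1, a filter on low levels, no trend, scaling to equal sums, a replicate block and leaving out each library.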

Additional observations from a re-analysis of the deposited data

How the results depend on the processing

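No member changed direction under any alternative in which it was tested, and 33 of the 41 kept direction and side of the threshold in all of those. The filter on low levels tested 32 of the 41, and the others were not judged under it. The exceptions were *Pcdhgb5*, *Lrrc70*, *Itga2b*, *Col6a2*, *Lamb3*, *Fbn2* and *Timp4*, which lost their call under at least 1 alternative, and *Lrrc27*, which gained one, as given in the report. With a pseudocount of 0.1, 28 members were higher and 8 lower by log2 1 or more (51.4% and 37.0% of all listed genes) and the median difference was 1.19 (all listed genes 1.05), since low levels are then shrunk less. With genes below a mean of 1 in both groups removed, 32 members of 826 genes were tested and the median was 0.74 (all tested genes 0.71). With libraries scaled to equal sums, 7 members were lower by log2 1 or more (27.6% of all listed genes) and the median was 0.47 (all listed genes 0.45). With the γ-protocadherins as 1 locus, an alternative chosen after seeing the data, the median was 0.49. Leaving out each library in turn gave 25 to 27 higher, 9 to 11 lower, 5 to 8 higher and 2 to 5 lower by log2 1 or more, and a median of 0.56 to 0.61. In these fits 1 group has a single library, which is assumed to vary like the other group. With a replicate block, 28 members were higher and 12 lower, where 494 and 402 of all 920 listed genes were, and no call of a member changed. Deviations of libraries with the same number had a correlation of -0.04 over the listed genes and -0.34 over the members. All listed genes were selected for a difference between these same libraries, so these values cannot settle whether the number marks a pairing. Without counts, what depth limits is unknown, and members at levels below 1 rest on values rounded to 2 decimals.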
